A study of Homo sapiens with 6 samples.

Results

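The genes described here encode the TGF-beta ligands TGFB1, TGFB2 and TGFB3, the receptors TGFBR1 and TGFBR2, the signal transducer SMAD3, its inhibitor SMAD7, and 2 secreted products of responding cells, TGFBI and THBS1. They were chosen by symbol, with earlier results of these data known. All 9 were found among the 26372 genes of the deposited table. Each passed the filter of a mean of 1 FPKM (fragments scaled to transcript length and to the size of the library). The table holds 6 poly(A) RNA libraries of SH-SY5Y, a human neuroblastoma cell line. In 3 of them (labelled shT2) the cells carried an shRNA, a small hairpin that silences a gene, aimed at TDP-43, the RNA-binding protein made from TARDBP, and in the other 3 (labelled shNC3) a control hairpin. Each hairpin was delivered by a lentiviral vector, and the labels describe puromycin selection of the stable knockdown cells. Each arm has a single hairpin label, and the labels do not say whether an arm is a clone or whether its 3 libraries came from separate cultures. The p-values therefore rest on the spread between libraries alone, and that spread may be technical.

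TGF-beta ligands are secreted as latent complexes bound to LTBP proteins and the extracellular matrix, and are released by integrins, proteases or thrombospondin-1, the product of THBS1. The active ligand binds TGFBR2, which phosphorylates TGFBR1, and TGFBR1 in turn phosphorylates SMAD2 and SMAD3. These join SMAD4 in the nucleus and switch on target genes, among them SMAD7, which blocks the receptors in a negative feedback loop. In neuroblastoma the pathway is known for its link to the flat, mesenchymal-type cell state.

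The targeted gene TARDBP stood between 20.7 and 21.9 FPKM in the knockdown libraries and between 47.7 and 50.3 FPKM in the controls. How many reads lie behind a value is unknown, because FPKM does not keep it. The spacing of low values put the libraries at 52.6% to 100% of the deepest, and knockdown library 2 came out shallowest. For that library the estimate rests on 98 of 1363 compared values, against 253 of 1516 for knockdown library 1. Of 13434 genes tested, limma called 66.3% at an adjusted p under 0.05, 30.5% higher and 35.9% lower in the knockdown, so a call alone was the usual outcome in this comparison.

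The upstream sequences of the 3 ligand genes and of THBS1 are shown because the ligands did not move alike and THBS1 had the largest fall of the 9 on the log2(FPKM + 1) scale. Each is the 250 bases before a RefSeq gene start on GRCh38.p14, 5′ to 3′ on the gene's strand. They lie at chr19:41353923-41354172 (minus strand) for TGFB1, chr1:218345086-218345335 (plus) for TGFB2, chr14:75983012-75983261 (minus; the first of 2 listed starts) for TGFB3 and chr15:39580829-39581078 (plus) for THBS1. Capitals mark the SMAD half-site CAGAC and the TEAD motif CATTCC, each searched on both strands (GTCTG and GGAATG on the other strand).
TGFB1: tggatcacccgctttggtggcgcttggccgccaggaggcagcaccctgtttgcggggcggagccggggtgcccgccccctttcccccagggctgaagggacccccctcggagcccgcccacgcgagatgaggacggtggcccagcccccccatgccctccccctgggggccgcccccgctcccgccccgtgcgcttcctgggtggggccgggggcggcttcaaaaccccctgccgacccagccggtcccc
TGFB2: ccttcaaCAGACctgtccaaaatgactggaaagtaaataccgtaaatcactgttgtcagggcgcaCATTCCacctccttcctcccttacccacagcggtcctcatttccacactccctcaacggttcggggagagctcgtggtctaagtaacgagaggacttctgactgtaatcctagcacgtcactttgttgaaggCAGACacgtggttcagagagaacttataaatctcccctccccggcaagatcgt
TGFB3: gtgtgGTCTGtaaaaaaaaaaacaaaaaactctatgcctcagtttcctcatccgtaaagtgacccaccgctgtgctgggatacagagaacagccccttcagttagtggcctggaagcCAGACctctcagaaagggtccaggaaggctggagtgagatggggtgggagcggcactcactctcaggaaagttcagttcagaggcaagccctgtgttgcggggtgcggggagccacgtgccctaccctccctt
THBS1: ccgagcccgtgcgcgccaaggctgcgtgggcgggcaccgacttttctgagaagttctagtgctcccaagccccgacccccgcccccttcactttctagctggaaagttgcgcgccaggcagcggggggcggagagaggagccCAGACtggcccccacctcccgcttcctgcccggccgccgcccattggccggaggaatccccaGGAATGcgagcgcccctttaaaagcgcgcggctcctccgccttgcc

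The TGFB1 window held neither motif. CAGAC began 243 and 53 bases before the start in TGFB2, 245 and 133 bases before it in TGFB3, and 108 bases before it in THBS1. CATTCC began 185 bases before the start in TGFB2 and 46 bases before it in THBS1. These letters are common: CAGAC was present in 38.0% and CATTCC in 11.9% of 34943 RefSeq windows of the same length. Over the first listed window of each of the 9 genes, 5 held CAGAC and 2 held CATTCC. Not all of these windows adjoin the gene positions given below. The RefSeq start used lies 899 bases before the TGFB2 position. For TGFBR1, SMAD3 and SMAD7 it lies 1075, 1839 and 1087 bases inside the gene. The palindrome GTCTAGAC (0.183% of all windows) and the AP-1 motif TGANTCA (6.59%) were in none of the 9. A match describes the letters and not a binding site. The TGFB1 and THBS1 windows were rich in G and C (76.8% and 69.6%), those of TGFB2 and TGFB3 less so (50.4% and 54.8%), and the median over all windows was 58%.

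Of the 9 genes, 8 were lower in the knockdown and 1, TGFB3, was higher. In 6 of them (TGFB1, TGFB2, TGFBR2, TGFBI, THBS1 and SMAD7) the fall was at least 2-fold on the log2(FPKM + 1) scale and passed the test, against 7.95% of all tested genes. None of the 9 rose by 2-fold (3.31% of all tested genes did). The knockdown values lay wholly apart from the control values in all 9, against 70.8% of all tested genes, below them in 8 (38.2%) and above them in 1 (32.5%). The median log2 fold change of the 9 was -1.93, and over all tested genes it was -0.020. The other 3 genes, TGFB3, TGFBR1 and SMAD3, differed by 1.34-, 1.28- and 1.14-fold between group means. For every one of the 9 an exact two-sided permutation test of the FPKM values gave p = 0.1, and no smaller value can be reached with 3 libraries in each group.

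**Figure D1:**
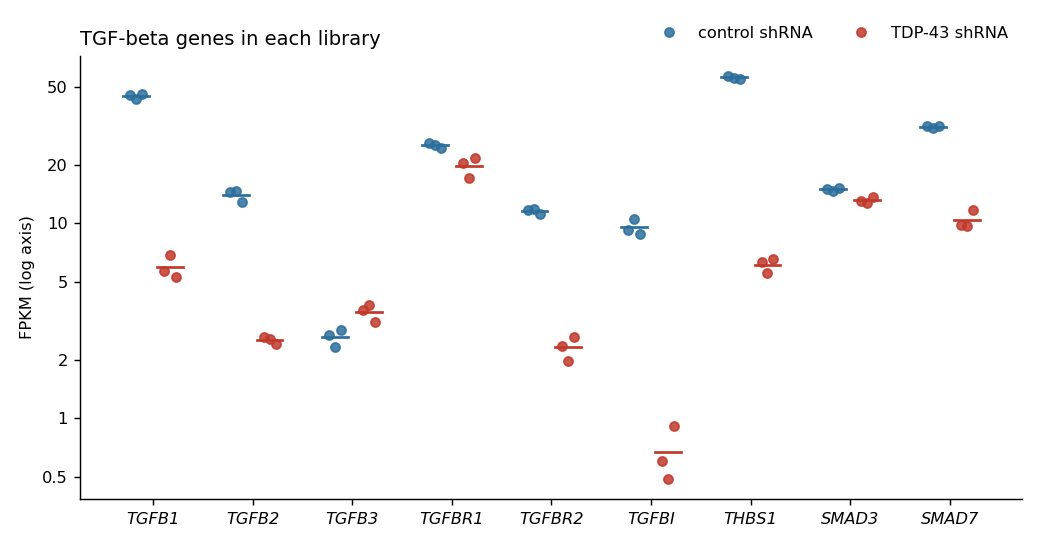
FPKM on a log axis for each of the 9 genes, with 1 point per library (blue, control shRNA; red, TDP-43 shRNA) and a line at each group's mean. TGFB1, TGFB2, TGFBR2, TGFBI, THBS1 and SMAD7 are far lower in the knockdown, TGFBR1 and SMAD3 slightly lower, and TGFB3 slightly higher.

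Among the ligands, TGFB1 and TGFB2 fell steeply and TGFB3 rose a little. TGFB1 (chromosome 19, 41301587 to 41353911, minus strand, GRCh38), the most widely made ligand, stood at 5.72, 6.85 and 5.31 FPKM in knockdown libraries 1 to 3 and at 45.7, 43.6 and 45.98 FPKM in the controls. Its highest knockdown value was far below its lowest control value, and the control mean was 7.57 times the knockdown mean. On the log2(FPKM + 1) scale TGFB1 fell by 2.73 (standard error 0.080, limma adjusted p = 1.28e-08). HNRNPUL1, a gene on the opposite strand, shares 215 exonic bases (6.64% of the TGFB1 exons in GENCODE v29) with it and stood between 68.0 and 75.8 FPKM over the 6 libraries, and use of strand in counting is not given in the sources used here.

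TGFB2 (chromosome 1, 218346235 to 218444619, plus strand), a ligand of neural crest and neural development, stood at 2.62, 2.54 and 2.41 FPKM in the knockdown and at 14.5, 14.7 and 12.9 FPKM in the control. The groups did not overlap, the control mean was 5.56 times the knockdown mean, and the log2 fold change was -2.09 (standard error 0.071, limma adjusted p = 3.32e-08). TGFB2-OT1, which lies over 26.6% of the TGFB2 exons on the same strand, was listed at 0 in all knockdown libraries and at no more than 0.787 FPKM in a control. The antisense gene TGFB2-AS1, with 161 bases of an exon (chromosome 1, 218345175 to 218345388, minus strand, GENCODE v29) in the window printed above, reached no more than 0.214 FPKM in the knockdown and 0.723 FPKM in the control and was listed at 0 in 3 of the 6 libraries.

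TGFB3 (chromosome 14, 75958099 to 75982991, minus strand), the ligand known for its part in palate closure, stood at 3.59, 3.80 and 3.13 FPKM in the knockdown and at 2.69, 2.32 and 2.82 FPKM in the control. All knockdown values were above all control values, but the nearest pair, 3.13 and 2.82 FPKM, lay close together. The knockdown mean was 1.34 times the control mean and the log2 fold change 0.32 (standard error 0.091, limma adjusted p = 0.0131). The call was lost without control library 2 (log2 fold change 0.26, adjusted p = 0.0531). With columns rescaled to equal sums TGFB3 was lower instead (-0.36, adjusted p = 0.0105), while the median of all tested genes moved from -0.020 to -0.82 under that scaling.

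Because FPKM is per length, the ligands can be set beside each other within a library. The summed FPKM of the 3 ligands was 11.9, 13.2 and 10.8 in the knockdown and 62.9, 60.6 and 61.7 in the control, so the knockdown held 0.194 times the control sum. TGFB1 made up 73.0% ± 1.36 of that sum in the control and 49.6% ± 2.09 in the knockdown (SD, n = 3 each). TGFB3 made up 4.22% ± 0.379 in the control and 29.2% ± 0.755 in the knockdown. TGFB2 made up 22.7% ± 1.72 in the control and 21.2% ± 1.63 in the knockdown, values that overlapped between the groups. By these values TGFB1 was the most abundant ligand transcript in every library, and TGFB3 passed TGFB2 in all 3 knockdown libraries. How much of the TGFB1 value came from reads of the overlapping gene HNRNPUL1 is unknown. The rank of TGFB1, the ligand shares and the ratios to TGFB1 given below are therefore least certain in the knockdown, where TGFB1 is low.

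**Figure D2:**
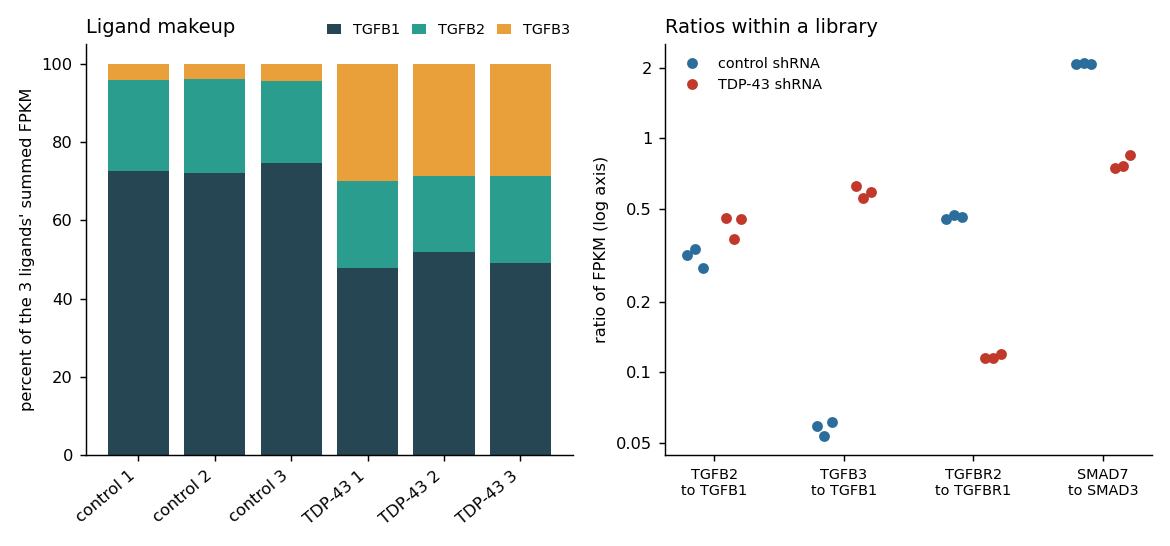
Left, stacked bars of each ligand gene's percent of the summed FPKM of TGFB1, TGFB2 and TGFB3 in each library. Right, ratios of FPKM between pairs of genes on a log axis, 1 point per library (blue, control shRNA; red, TDP-43 shRNA). TGFB3 takes 28.8% to 30.1% of the ligand sum in the knockdown against 3.82% to 4.57% in the control, and TGFBR2 to TGFBR1 and SMAD7 to SMAD3 are lower in every knockdown library.

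The receptor genes fell by unequal amounts. TGFBR2 (chromosome 3, 30606502 to 30694142, plus strand), the receptor that binds the ligand first, stood at 2.35, 1.97 and 2.60 FPKM in the knockdown and at 11.7, 11.9 and 11.2 FPKM in the control. The groups lay far apart, with a control mean 5.03 times the knockdown mean and a log2 fold change of -1.93 (standard error 0.082, limma adjusted p = 1.31e-07). TGFBR1 (chromosome 9, 99104038 to 99154192, plus strand), the kinase that phosphorylates SMAD2 and SMAD3, stood at 20.4, 17.2 and 21.7 FPKM in the knockdown and at 25.8, 25.4 and 24.4 FPKM in the control. Its lowest knockdown value came from library 2, the shallowest by the spacing of low values, and the groups did not overlap. The control mean was 1.28 times the knockdown mean and the log2 fold change was -0.34 (standard error 0.079, limma adjusted p = 0.00453). The size of the TGFBR1 difference depended on the scaling, from -0.19 with quantile normalization to -1.21 with columns rescaled to equal sums.

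The SMAD genes also differed from each other. SMAD7 (chromosome 18, 48919853 to 48952052, minus strand), the feedback inhibitor, stood at 9.77, 9.69 and 11.7 FPKM in the knockdown and at 31.6, 31.0 and 31.8 FPKM in the control. The highest knockdown value was far below the lowest control value, the control mean was 3.03 times the knockdown mean, and the log2 fold change was -1.52 (standard error 0.071, limma adjusted p = 2.33e-07). SMAD3 (chromosome 15, 67063763 to 67195195, plus strand), the transducer, stood at 13.1, 12.7 and 13.7 FPKM in the knockdown and at 15.1, 14.7 and 15.3 FPKM in the control. The groups were close but did not overlap, with a control mean 1.14 times the knockdown mean. Its log2 fold change of -0.18 (standard error 0.052, limma adjusted p = 0.0138) was the smallest of the 9 in size. The SMAD3 call was lost with quantile normalization (-0.073, adjusted p = 0.199), under which the median of all tested genes was 0.091, and without control library 1 or 3 (adjusted p = 0.0521 and 0.0513).

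On the log2(FPKM + 1) scale the largest and the third largest falls of the 9 were in the 2 secreted products. THBS1 (chromosome 15, 39581079 to 39599466, plus strand) encodes thrombospondin-1, a matrix protein that is induced by TGF-beta and can itself release the latent ligand. It stood at 6.30, 5.57 and 6.54 FPKM in the knockdown and at 57.4, 55.95 and 55.3 FPKM in the control, a control mean 9.16 times the knockdown mean. The log2 fold change was -3.01 (standard error 0.061, limma adjusted p = 1.53e-09), and 0.930% of tested genes had a larger fall. FSIP1, on the opposite strand, shares 448 exonic bases with THBS1 and reached no more than 1.91 FPKM in any library.

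TGFBI (chromosome 5, 136028895 to 136063818, plus strand) encodes a secreted adhesion protein named for its induction by TGF-beta. It stood at 0.602, 0.488 and 0.915 FPKM in the knockdown and at 9.25, 10.6 and 8.81 FPKM in the control. The knockdown values varied by a coefficient of variation (SD over mean) of 33.0%, the highest among the 9 genes, yet all were more than 9 times below the lowest control value. The log2 fold change was -2.67 (standard error 0.111, limma adjusted p = 1.19e-07). The ratio of the means was larger, 14.3-fold, because the added 1 FPKM weighs on low values. By that ratio, and with 0.1 FPKM (-3.68 against -3.18) or 0.5 FPKM (-3.12 against -3.10) added instead, TGFBI fell more than THBS1.

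The median coefficient of variation of the 9 was 10.9% in the knockdown and 2.84% in the control, against 7.52% and 4.79% over all tested genes. Knockdown library 2 had the highest TGFB1 and TGFB3 values and the lowest TGFBR1, TGFBR2, TGFBI, THBS1, SMAD3 and SMAD7 values of its group. Without it, each of the 9 genes kept its direction and its call.

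Ratios within a library are unchanged when its column is multiplied by a constant. TGFBR2 to TGFBR1 was 0.115, 0.115 and 0.120 in the knockdown and 0.452, 0.469 and 0.459 in the control, a 3.94-fold lower ratio of geometric means. SMAD7 to SMAD3 was 0.747, 0.764 and 0.852 in the knockdown and 2.09, 2.11 and 2.08 in the control, 2.66-fold lower. So the transcript of the inhibitor exceeded that of the transducer in every control library and was below it in every knockdown library. TGFB3 to TGFB1 was 0.0578 ± 0.00422 in the control and 0.591 ± 0.0372 in the knockdown (SD, n = 3 each), 10.2-fold higher by geometric means. TGFB2 to TGFB1 differed least, 0.312 ± 0.0291 against 0.428 ± 0.0491. For each of the 4 ratios computed the groups did not overlap, and the exact two-sided permutation p was 0.1, also after Benjamini-Hochberg adjustment over the 4, the smallest this design can give.

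The order of the 9 levels in FPKM changed between the groups. In the control it ran from THBS1 (56.2 ± 1.05) through TGFB1 (45.1 ± 1.28), SMAD7 (31.5 ± 0.412), TGFBR1 (25.2 ± 0.694), SMAD3 (15.03 ± 0.303), TGFB2 (14.03 ± 1.01), TGFBR2 (11.6 ± 0.354) and TGFBI (9.55 ± 0.925) to TGFB3 (2.61 ± 0.261), each mean ± SD over 3 libraries. No neighbours in that order overlapped, though SMAD3 and TGFB2 came within their spread. In the knockdown TGFBR1 (19.8 ± 2.30 FPKM) was highest, ahead of SMAD3 (13.2 ± 0.519) and SMAD7 (10.4 ± 1.13). THBS1 (6.14 ± 0.508) and TGFB1 (5.96 ± 0.797) overlapped, TGFB3 (3.51 ± 0.343) came next, TGFB2 (2.52 ± 0.109) and TGFBR2 (2.31 ± 0.316) overlapped, and TGFBI (0.668 ± 0.221) was lowest.

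**Figure D3:**
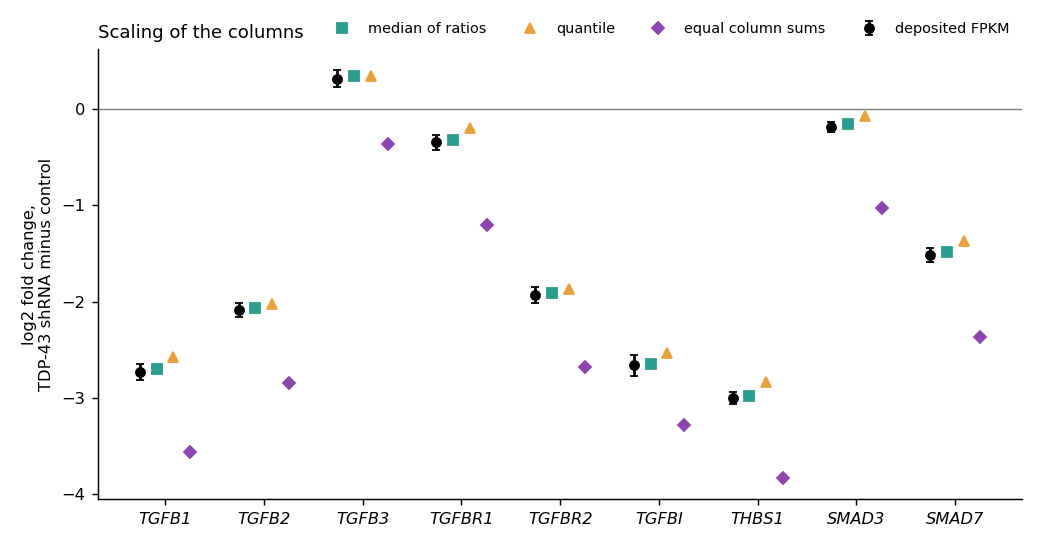
Log2 fold change (TDP-43 shRNA minus control, log2(FPKM + 1) scale) of the 9 genes on the deposited values (black, with the limma standard error) and with 3 other scalings of the columns. With equal column sums every gene lies lower and TGFB3 turns from 0.32 to -0.36; median-of-ratios rescaling moves each gene little, and quantile normalization moves SMAD3 from -0.18 to -0.073 and TGFBR1 from -0.34 to -0.19.

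The other genes of the pathway were taken from 5 lists. Of 131 in the table, 111 were tested, and 81 of these were lower and 18 higher in the knockdown (73.0% and 16.2%, against 35.9% and 30.5% of all tested genes). Their median log2 fold change was -0.64. A fall of at least 2-fold was found for 51 and a rise of that size for 2. With columns rescaled to equal sums only 2 of the 111 were higher.

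Genes of ligand latency and activation were mostly lower, 16 of 17 tested (94.1%, against 35.9% of all tested genes) with none higher (median -1.41). LTBP4 was the gene not called (limma adjusted p = 0.594). The largest falls were in the matrix protein gene FN1 (29.01 ± 0.348 FPKM in the knockdown, 620.3 ± 1.88 in the control), the integrin chain ITGB5 (1.05 ± 0.0348 against 20.6 ± 0.591), and the plasminogen activators PLAT (2.51 ± 0.583 against 20.3 ± 0.577) and PLAU (1.37 ± 0.109 against 10.7 ± 0.589). Here and below, values are mean ± SD over 3 libraries in that order. The LTBP genes, whose products hold the latent ligand, had log2 fold changes of -1.41 (LTBP1), -1.97 (LTBP2), -0.58 (LTBP3) and 0.051 (LTBP4). LRRC32, NRROS and ITGB6 were under the filter.

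The activin branch signals through the same SMAD2 and SMAD3. Only 5 of its 15 listed ligands and antagonists in the table were expressed enough to be tested. Of these 5, 3 were lower (60.0%, against 35.9% of all tested genes). The activin subunit gene INHBA stood at 2.07 ± 0.141 FPKM against 31.0 ± 0.381, and the activin-binding antagonists FSTL3 and FST at 5.44 ± 0.256 against 50.8 ± 3.58 and 0.577 ± 0.132 against 2.86 ± 0.541. NODAL and GDF11 were not called (adjusted p = 0.803 and 0.144).

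Of 12 tested genes of other receptors and co-receptors, 8 were lower and 4 higher (median -0.29). That is 66.7% and 33.3%, against 35.9% and 30.5% of all tested genes, so the share higher was near that of all. The type I and type II activin receptors ACVR1B (15.6 ± 0.897 FPKM against 7.44 ± 0.0748) and ACVR2B (18.5 ± 1.41 against 9.84 ± 0.339) were higher, by 0.98 and 0.85 on the log2 scale. After rescaling the columns to equal sums neither was called (0.15 and 0.0065, adjusted p = 0.128 and 0.935). CD109, a TGF-beta co-receptor, stood at 5.59 ± 0.208 FPKM in the control and was near 0 in the knockdown (0.00328 ± 0.00567), and NRP1 stood at 21.1 ± 0.473 against 58.2 ± 0.517. TGFBR3, the co-receptor betaglycan, had 0 in each knockdown library and averaged 0.0173 FPKM in the control, under the filter.

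Among SMADs and their regulators, 18 of 36 tested genes were lower, 10 higher and 8 not called (median -0.14). SMAD2 (22.0 FPKM against 22.4) and SMAD4 (19.1 against 18.5), the partners of SMAD3, were not called (adjusted p = 0.769 and 0.661). The largest changes were falls in SKIL (13.2 ± 1.44 FPKM against 49.0 ± 1.89) and PMEPA1 (5.94 ± 0.696 against 20.7 ± 0.323), both inhibitors of the pathway that TGF-beta itself induces, in SNX25 (7.68 ± 0.862 against 24.2 ± 1.04) and in PPP1R15A (7.54 ± 0.131 against 16.7 ± 0.930). With columns rescaled to equal sums all 36 were lower, as were 11689 of all tested genes.

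Of 41 tested target genes 36 were lower (87.8%), 4 higher (9.76%) and 1, SNAI2, was not called (median -1.63). Over all tested genes 35.9% were lower and 30.5% higher. The cytokine IL11 stood at 0.427 ± 0.0925 FPKM against 24.4 ± 1.73, the smooth muscle gene TAGLN at 21.5 ± 1.60 against 391.5 ± 9.31, and CTGF at 0.0914 ± 0.0665 against 46.7 ± 1.07. The 4 that were higher, named after their values were seen, were SNAI1 (0.24), TWIST1 (1.40), TSC22D1 (0.88) and MYC (1.72), given as log2 fold changes. With columns rescaled to equal sums 2 of the list were higher. The list was not divided by whether TGF-beta raises or lowers a gene, so a rise is not by itself an exception. Most of these genes also answer to other signals.

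**Figure D4:**
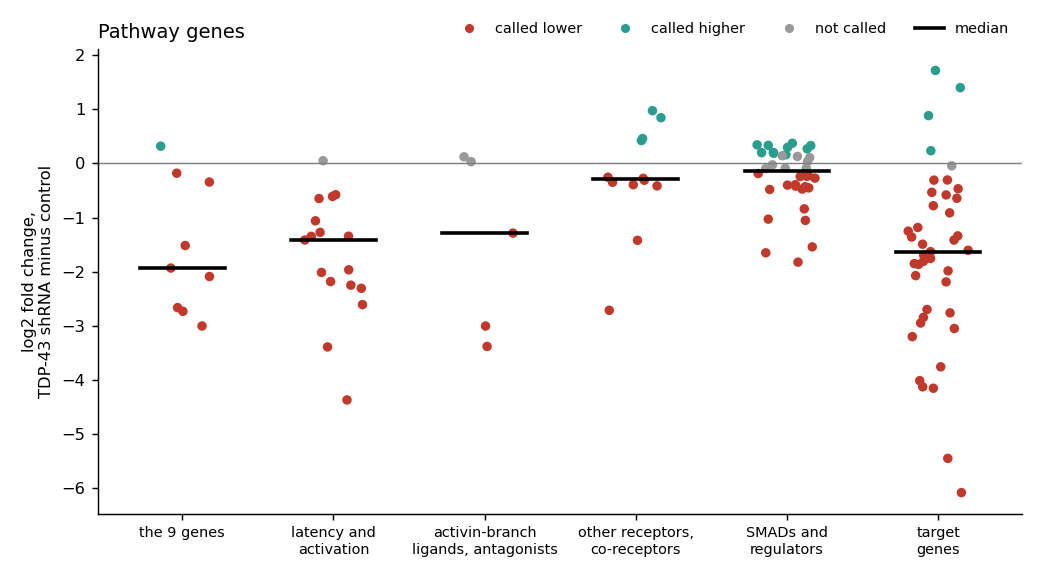
Log2 fold change (TDP-43 shRNA minus control) of the 9 genes and of the tested genes on each pathway list, 1 point per gene, coloured by its call, with a black line at the list's median. Medians run from -1.93 for the 9 genes and -1.63 for target genes to -0.14 for SMADs and regulators.

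Markers of the 2 cell states of neuroblastoma lines differed between the arms as well. Of 13 tested mesenchymal-type markers 12 were lower (92.3%, against 35.9% of all tested genes) and none higher. The summed FPKM of all 14 was 382 to 391 in the knockdown and 1536 to 1572 in the control. VIM, the intermediate filament gene of such cells, stood at 266 ± 0.711 FPKM against 1118 ± 20.0. Of 14 tested noradrenergic markers 11 were higher and 2 lower (78.6% and 14.3%, against 30.5% and 35.9% of all tested genes). The 16 listed summed to 1217 to 1357 FPKM against 1035 to 1086. The 2 lower were NPY, a neuropeptide gene (24.9 ± 0.957 FPKM against 428 ± 20.7), and DBH, an enzyme gene of noradrenaline synthesis (31.3 ± 2.97 against 38.1 ± 0.942). Without NPY, left out after its values were seen, the other 15 summed to 1192 to 1331 FPKM against 627 to 643. TH, an enzyme gene of catecholamine synthesis, was listed at 0 in all 6 libraries. The part of these differences in the values of the 9 genes was not tested, and ENG and SNAI2 stand both on the mesenchymal-type list and on a pathway list. In bulk RNA, fewer cells of a type and less RNA per cell cannot be told apart.

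Of 10 Schwann and glial markers 4 were tested, 3 higher and 1 lower (75.0% and 25.0%, against 30.5% and 35.9% of all tested genes). The list summed to 53.6 to 54.2 FPKM in the knockdown and 45.9 to 48.7 in the control. Most of it was PMP22, a myelin protein gene, which was lower (27.1 to 29.6 FPKM against 36.3 to 39.4), and NGFR, a neurotrophin receptor gene, which was higher (16.5 to 17.2 FPKM against 5.42 to 6.20). Their defining factor SOX10 stayed low, at 0.316 ± 0.110 FPKM against 0.250 ± 0.0299. The 6 leukocyte and endothelial markers summed to 2.66 to 3.49 FPKM against 14.1 to 15.4, nearly all of it CD68 (2.55 ± 0.404 against 14.7 ± 0.617), which encodes a lysosomal protein. CDH5 was listed at 0 in all libraries and PTPRC stood at 0.0357 ± 0.0157 FPKM against 0.0839 ± 0.0266.

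The genes most like THBS1, the member with the largest fall on the log2(FPKM + 1) scale, were PRSS12, LOXL2 and THSD4, at distances of 0.0951, 0.101 and 0.148. The distance is Euclidean, over the 6 libraries, between log2(FPKM + 1) values centred on the control mean, among 13425 other tested genes. Their own log2 fold changes were -3.01, -2.99 and -3.00, and LOXL2 encodes a collagen cross-linking enzyme. The levels differed, with knockdown means of 6.27, 3.79 and 0.226 FPKM against control means of 57.6, 37.1 and 8.81. The added 1 FPKM weighs on the low THSD4 values, so its ratio of means is larger than those of the other genes. The genes most like TGFB3, the member that rose, were TMEM259, WDR24 and ACP6 (distances 0.0756, 0.0814 and 0.0835), with log2 fold changes of 0.30, 0.34 and 0.28. With 2 groups this likeness rests mostly on the size of the difference between them.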

How the data were processed

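FPKM per gene, as deposited by the authors, were used for 6 SH-SY5Y libraries, each in its own column matched by sample title, with 0 unmatched columns. The submitters' processing notes name TopHat2 2.1.0, SAMtools, Cuffdiff 2.2.1 and hg38 without saying what each did. Neither the annotation nor the strand setting is given in the sources used here. Overlapping genes can therefore not be separated. Together 6 short RNAs take 63.8% to 64.9% of the column sums in the control and 79.7% to 82.0% in the knockdown. The sums themselves are 1.18e+06 to 1.23e+06 in the control and 2.12e+06 to 2.45e+06 in the knockdown. The reason for this difference between the arms was not tested. An exact 0 can be a failed estimate.

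From these values log2(FPKM + 1) was computed, a scale on which low genes change too little. For the 13434 genes with a mean of at least 1 FPKM, the groups were compared by limma 3.58.1 (R 4.3.3, intensity trend, two-sided), adjusting by Benjamini-Hochberg over all of them, with a threshold of 0.05. The test was checked on simulated data. Few genes were changed there, so the check does not cover a comparison in which most genes are called. Single values were compared by exact permutation (scipy 1.17.1). Relative depth was read from the most frequent ratio between low values (under 0.3 FPKM) of 2 libraries. Gene positions (1-based) are those of GENCODE v29, which uses GRCh38, and upstream sequences from RefSeq on GRCh38.p14, where all 9 symbols matched.

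The members and lists were chosen with earlier results of these data known. The rule named the 9 genes, TARDBP, up to 4 called genes with the largest change per pathway list, and the 3 genes nearest to each of 2 members. LTBP1 to LTBP4, SMAD2, SMAD4, TGFBR3, the single markers and other genes outside the rule were named after their values were seen. Some genes that the rule names are left out, and no others took their place. Other settings tried were a pseudocount of 0.1 or 0.5, no filter or one at 0.1 or 5 FPKM, 3 rescalings, a replicate block, limma with no trend or with robust estimation, and 6 fits without 1 library. Equal sums without 6 small RNAs, and a fit that drops genes at an exact 0, were chosen after seeing the data.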

Additional observations from a re-analysis of the deposited data

How the results depend on the processing

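Over the alternative fits of the 9 genes, 165 of 170 values kept their direction and call. TGFB1, TGFB2, TGFBR1, TGFBR2, TGFBI, THBS1 and SMAD7 kept both in every one of 19 fits, TGFBR1 most narrowly (highest adjusted p = 0.0497), with values from -1.21 with equal sums to -0.19 with quantile normalization. With columns rescaled to equal sums TGFB3 turned to -0.36, 522 of all tested genes were higher and 11689 lower, and 2 other pathway genes were higher. Calls that were higher made up 45.9% of all calls on the deposited values, 58.8% with quantile normalization and 4.27% with equal sums, a sum that short RNAs dominate. With equal sums taken without 6 small RNAs, a setting chosen after seeing the data, TGFB3 stood at 0.30 (limma adjusted p = 0.0216), 3784 of all tested genes were higher and 5154 lower, and 17 other pathway genes were higher. SMAD3 lost its call with quantile normalization (-0.073), and the cause was not tested. TGFB3 could not be fitted at a minimum mean of 5 FPKM, since its mean is lower. Leaving out each library in turn, TGFB3 ranged from 0.26 to 0.38 and SMAD3 from -0.21 to -0.16. With a replicate block 3894 genes were higher and 4667 lower, against 4092 and 4817 without it, and each of the 9 genes kept its call. Deviations of same-numbered libraries correlated at -0.018, -0.18 and -0.091 across 13434 genes, and none correlated best with its own number. The shared numbers thus gave no sign of a pairing. With so few libraries in each group, these values cannot show whether same-numbered libraries were handled together, and the labels do not say. Unknown read numbers limit the precision of the low genes TGFBI, TGFBR2 and TGFB2 in the knockdown.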
